A study of Mus musculus with 8 samples.

Results

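Mediator is a multisubunit complex that carries signals from DNA-bound transcription factors to RNA polymerase II at promoters. The mRNAs of its subunits were followed in mouse oocytes grown from embryonic stem cells, before and after meiotic maturation. The gene symbols of 26 core subunits and 7 subunits of the dissociable kinase module were matched to the identifiers of the deposited count table, and all 33 were found among its 55385 genes. The rule used gene names and no measured value, but the subunits were chosen with earlier results of these data known. All 33 had enough reads to be tested, among 14929 genes tested in all.

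The core of Mediator is built from a head, a middle and a tail module joined along the backbone subunit MED14. The head and middle contact the polymerase, while the tail receives activators. The kinase module, made of MED12, MED13, cyclin C and the kinase CDK8 or their paralogues, binds the core reversibly and in doing so hinders its contact with the polymerase. A fully grown oocyte has largely stopped transcribing, and it goes through maturation on stored mRNAs that are translated, given longer or shorter poly(A) tails, or degraded. One route of tail lengthening runs through the cytoplasmic polyadenylation element (CPE), a U-rich site near the poly(A) signal that is bound by CPEB proteins.

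Oocytes came from 2 mouse stem cell lines of the strain C57BL/6 x 129/SvJ. The sex-converted line had an XX karyotype obtained from male cells, the native line was XX from the start, and both carried the transgenic reporters Blimp1-mVenus and Stella-ECFP. Germ cell-like cells of each line were aggregated with female gonadal somatic cells of embryonic day 12.5, so that follicle cells were not of the line's genotype, and kept for 21 days of differentiation and 11 days of growth culture. Germinal vesicle (GV) oocytes, arrested in the first meiotic prophase, were taken on day 11 and freed of cumulus cells in the presence of dibutyryl-cAMP and IBMX, which hold the arrest. Metaphase II (MII) oocytes, the mature eggs, were taken after another 16 hours with FSH, EGF and hCG and chosen by a first polar body. FSH at 0.1 IU/ml and BMP15 and GDF9 at 15 ng/ml each were listed for the libraries of both stages. EGF and hCG were listed for MII only. Each library pooled 31 to 158 GV or 35 to 58 MII oocytes, and there were 2 biological duplicates in each of the 4 groups. Each genotype was 1 stem cell line, so line and genotype cannot be told apart, and it is not stated whether the duplicates were separate cultures. Comparisons between the stages asked how the subunit mRNAs changed in maturation, and comparisons between the lines asked whether oocytes of male origin differed in them.

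Libraries held 10306471 to 14999003 counted reads. Levels are given in CPM, counts scaled to a common library total and corrected by a trimmed-mean (TMM) factor. A change between stages is therefore relative to the other mRNAs. In pools of oocytes, fewer cells and less RNA per cell cannot be told apart. Since only polyadenylated RNA was captured, a change in tail length and a change in mRNA amount cannot be told apart either. All 12 oocyte markers had reads in all 8 libraries. Of other cell types, 17 granulosa and cumulus markers summed to 58.0 to 80.0 CPM at GV and 119 to 154 CPM at MII, 10 stromal and theca markers to 1.34 to 2.21 and 3.61 to 19.5 CPM, and 6 endothelial and blood markers to 61.2 to 92.7 and 197 to 282 CPM, of which Pecam1 made up nearly all. Lum and Col1a2 had 0 reads in all libraries, and the granulosa markers Foxl2 and Amh stayed below 1 CPM. Others were higher at MII, among them Vim (0.0487 to 0.223 CPM at GV and 1.43 to 16.7 CPM at MII), Acta2 (0 and 0.477 to 3.83 CPM), Krt18 (0 and 0.0951 to 1.20 CPM) and Has2 (0.557 to 2.21 and 4.58 to 6.68 CPM), and Fst reached 13.8 CPM in native MII replicate 1. In the granulosa list, Cyp19a1 (12.4 to 19.4 CPM at GV and 47.95 to 63.5 CPM at MII) and Kitl (3.17 to 5.96 and 21.2 to 35.8 CPM) were also higher. Not all markers of that list rose. Fshr went from 0.39 to 1.43 CPM at GV to 0 reads in all MII libraries. Nr5a2 went from 31.3 to 47.4 CPM at GV to 24.2 to 29.997 CPM at MII. The marker sums rose with stage, and native MII replicate 1 had the highest granulosa and stromal sums. Their part in the changes described here was not tested.

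The 3′ ends of 3 subunit mRNAs are shown as chosen examples, in which the letters differ between subunits that changed in maturation. Med11 and Med31 rose and hold CPE-like letters beside the poly(A) signal. Med17, the most abundant at GV per kilobase of merged exons, fell and holds none in the stretch shown. Each is a 30-base stretch of the annotated principal transcript in GRCm38, written in the direction of the gene. Capitals mark the poly(A) signal AATAAA and, where present, the CPE-like letters TTTTAAT or TTTTAT directly before it or 1 base away. Med11 holds another TTTTAT after the signal, outside the stretch shown. These examples do not stand for all subunits. In the longer window searched below, 4 of 14 subunits that rose in both lines hold such letters. So do 2 of 13 that fell in both, Med19 and Med24. Med13, which had the largest rise, holds none in that window.
Med11 (chr11:70453688-70453717, plus strand): actaagtgTTTTAATAATAAAagctgtatt
Med31 (chr11:72211729-72211758, minus strand): ggcaaattTTTTATtAATAAAttatttcta
Med17 (chr9:15260352-15260381, minus strand): tctcttcacagcAATAAAatcctaagactc

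Subunit mRNAs did not move together in maturation. In the native line 14 rose, 13 fell and 6 did not pass the test, where 29.6% of all genes rose and 35.7% fell. In the sex-converted line 15 rose, 14 fell and 4 did not pass, where 29.3% and 36.2% of all genes rose and fell. A call here is a Benjamini-Hochberg adjusted p under 0.05 in edgeR's quasi-likelihood test, two-sided and adjusted over all genes tested. The called share was 81.8% of subunits in the native line against 65.2% of all genes, and 87.9% against 65.5% in the sex-converted line. Most subunits were well expressed, and among genes averaging 10 CPM or more in 1 group or another the shares called were 81.1% and 80.9%, nearer to the shares of the subunits. The median log2 fold change of MII over GV was -0.12 and 0.027 over the subunits in the native and sex-converted lines, beside -0.31 and -0.35 over all genes. The median size of the change, without its sign, was 1.85 and 1.62 log2 units over the subunits and 1.63 in both lines over all genes.

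**Figure D1:**
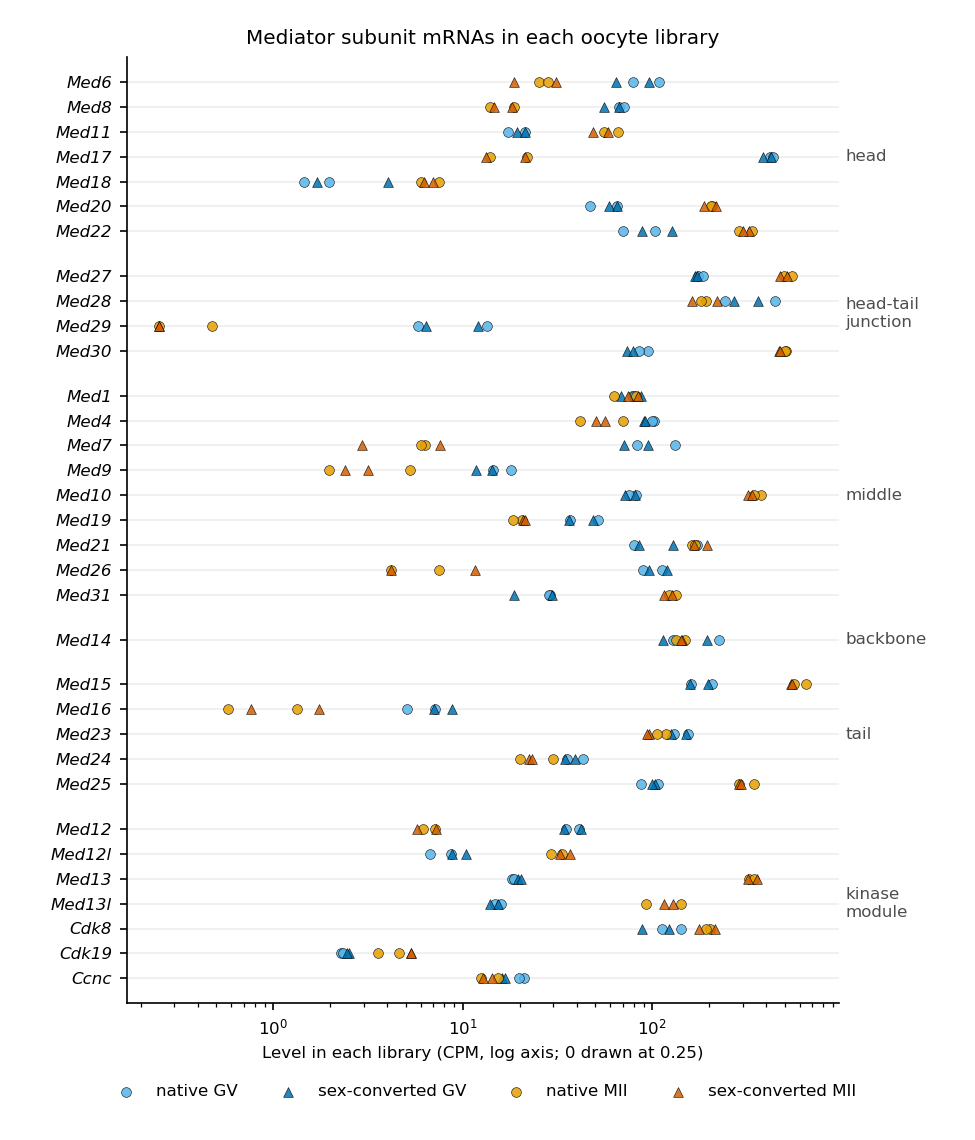
CPM of each subunit mRNA (horizontal log axis) in every library, grouped by module; circles are the native line, triangles the sex-converted line, blue shades GV and orange shades MII, and 0 is drawn at 0.25. The GV and MII libraries lie apart for all but Med1, Med21 and Med14, and Med17 moves from 384 to 435 CPM at GV to 13.2 to 21.9 CPM at MII.

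The direction was shared between the lines. In both, 14 subunits rose and 13 fell, together 27 of 33, where 26.9% of all genes rose in both, 32% fell in both, and 58.9% did either. Among the 29 subunits averaging 10 CPM or more in 1 group or another, 24 were called in the same direction in both lines, against 77.5% of such genes. Of all genes 0% were called in opposite directions. All 4 MII libraries lay above all 4 GV libraries for 15 subunits and below them for 15, and 3 overlapped. Over all genes tested 32.2% lay wholly above and 40.2% wholly below, together 72.4%. Scaled by library totals alone, the median of all genes shifted by -0.91 in the native line and -0.93 in the sex-converted line. The share of calls that were higher then went from 45.3% to 24.6% and from 44.7% to 23.4%. On that scaling 12 subunits rose and 17 fell in the native line, where 2488 and 7614 of all 14929 genes did. In the sex-converted line 10 rose and 17 fell, where 2372 and 7785 of all 14929 genes did.

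**Figure D2:**
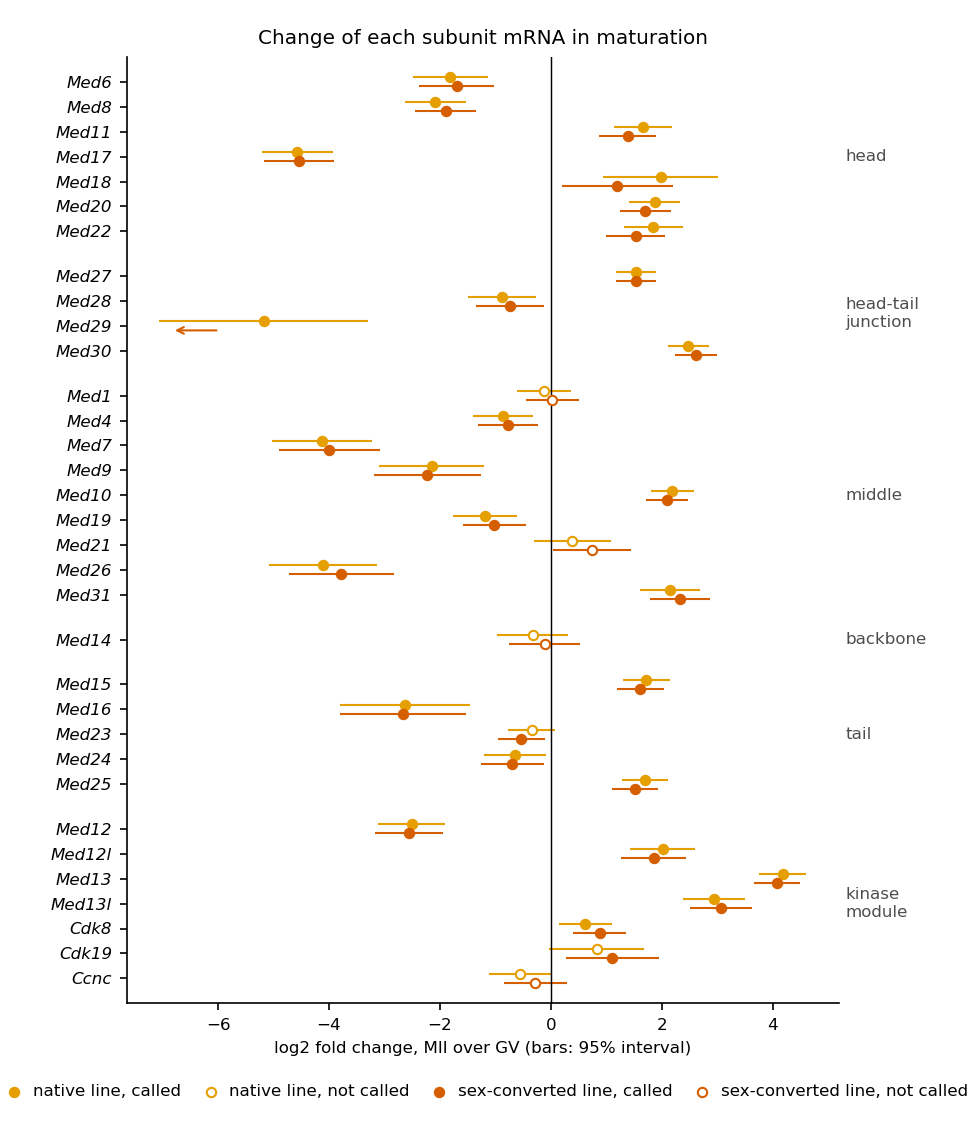
Log2 fold change of MII over GV for each subunit (horizontal axis, 95% interval as bars), native line above and sex-converted line below in each pair; filled points were called, open points were not. The arrow for Med29 marks the sex-converted line, where MII libraries had 0 reads and only a lower bound of the fall can be given. Every module with more than 1 subunit has points on both sides of 0.

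Subunits that changed at least 4-fold were found on both sides. In the native line, 6 rose and 8 fell by at least this much, where 12.6% and 24.2% of all genes did. In the sex-converted line 5 rose and 7 fell, beside 11.8% and 25% of all genes.

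**Figure D3:**
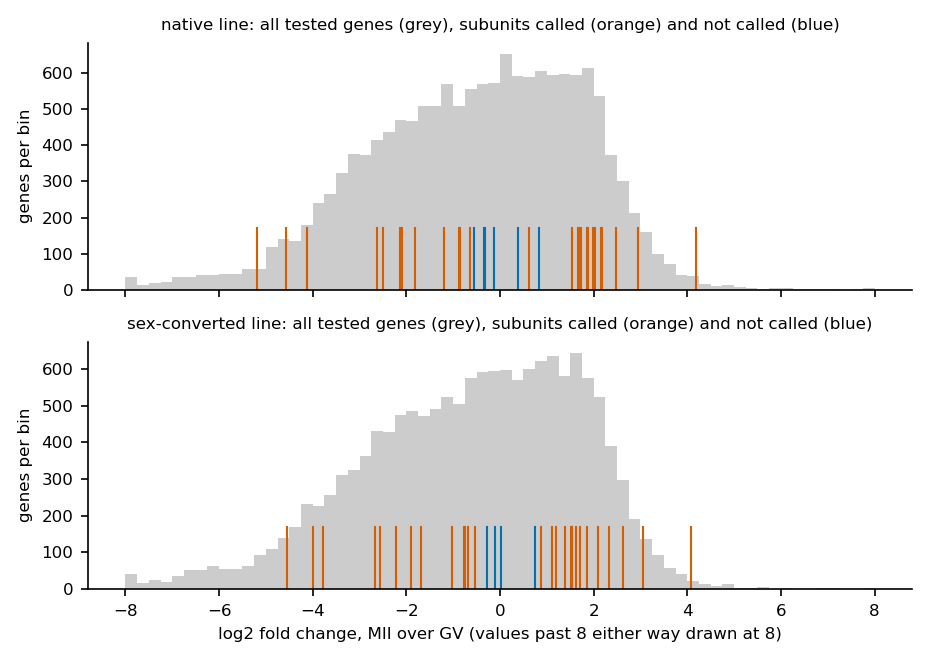
Number of genes (vertical axis) by log2 fold change of MII over GV in bins of 0.25 for all 14929 tested genes, with lines at the value of each subunit, orange where called and blue where not. Med29 is left out of the sex-converted panel, where its fold is only bounded. The lines for the subunits run from -5.18 (Med29) to 4.18 (Med13) in the native line and from -4.54 (Med17) to 4.08 (Med13) in the sex-converted line.

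The head module showed opposite changes among subunits that touch one another. Med17, the scaffold on which the head is assembled, had a far lower mRNA level at MII than at GV. It had 420.3 and 435 CPM in native GV libraries, 421 and 384 CPM in sex-converted GV libraries, 21.9 and 14.0 CPM in native MII libraries and 21.3 and 13.2 CPM in sex-converted MII libraries. The 4 GV libraries lay within a narrow band far above the 4 MII libraries. The fall was 23.8-fold in the native line (log2 fold change -4.57, SE 0.289, adjusted p = 6.06e-07) and 23.3-fold in the sex-converted line (-4.54, SE 0.289, adjusted p = 6.59e-07). Per kilobase of merged exons, the scale used to compare genes, Med17 ranked 1 among the 33 mRNAs at GV and 22 at MII in both lines. Such ranks depend on the length used. For Med21 the merged exons hold 3523 bases and the principal transcript 572, and ranks by principal transcripts were not computed.

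Med6, which joins the head to the middle, and Med8, which connects the core of the head to its movable jaw, fell too. Med6 went from 64.0 to 109 CPM over the GV libraries to 18.5 to 31.2 CPM over the MII libraries, and Med8 from 55.3 to 71.1 CPM to 13.9 to 18.5 CPM. Their log2 fold changes were -1.81 and -2.08 in the native line and -1.69 and -1.90 in the sex-converted line (adjusted p of at most 0.000561 in edgeR).

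The other 4 head subunits rose, and they form 2 dimers. Med18 and Med20 make up the movable jaw, and Med11 and Med22 pair in the fixed part of the head. Med20 rose from 47.0 to 65.4 CPM at GV to 187 to 217 CPM at MII, with log2 fold changes of 1.87 in the native and 1.70 in the sex-converted line. Med18 was low, at 1.45 to 4.05 CPM at GV and 6.02 to 7.45 CPM at MII. It was 3.95-fold higher at MII in the native line (adjusted p = 0.00343) and 2.30-fold higher in the sex-converted line (adjusted p = 0.0356, edgeR). Its highest GV library was sex-converted GV replicate 1, and without it the log2 fold change in that line was 1.95 instead of 1.20. The call in the sex-converted line was lost without sex-converted GV replicate 2 (0.73, adjusted p = 0.202) and without sex-converted MII replicate 1 (1.27, adjusted p = 0.0768) or 2 (1.12, adjusted p = 0.124). On library totals alone it was lost in both lines (adjusted p = 0.0719 native and 0.637 sex-converted).

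Med22 had 69.7 and 104 CPM in native GV, 127 and 88.3 CPM in sex-converted GV, 336 and 288 CPM in native MII and 322 and 299 CPM in sex-converted MII libraries. Its partner Med11 rose from 17.2 to 21.4 CPM at GV to 48.4 to 66.1 CPM at MII. GV and MII libraries of both genes lay apart. The log2 fold changes were 1.85 and 1.53 for Med22 and 1.66 and 1.39 for Med11 in the native and sex-converted lines, with adjusted p of at most 0.000337 in edgeR. On library totals alone, both missed the threshold in the sex-converted line (0.59, adjusted p = 0.0571 for Med22 and 0.45, adjusted p = 0.1 for Med11).

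Med27, Med28, Med29 and Med30 sit between the head and the tail and are assigned to either by different structures. Of these, 2 rose and 2 fell in both lines, where 26.9% of all genes rose in both and 32% fell in both. Med30 had 95.5 and 84.8 CPM in native GV, 73.3 and 79.1 CPM in sex-converted GV, 505 and 501 CPM in native MII and 464 and 471 CPM in sex-converted MII libraries. All MII libraries were several-fold above all GV libraries, by 5.58-fold in the native line (adjusted p = 8.22e-07) and 6.14-fold in the sex-converted line (adjusted p = 7.28e-07, edgeR). Per kilobase of merged exons it was the most abundant subunit mRNA in each of the 4 MII libraries, at 392 to 427 CPM per kilobase. Med27 rose from 167 to 185 CPM at GV to 474 to 547 CPM at MII, with a log2 fold change of 1.54 in both lines.

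Med29 mRNA was nearly undetected at MII. It had 241 and 83 reads in native GV and 107 and 246 reads in sex-converted GV libraries, or 5.84 to 13.4 CPM. At MII it had 5 reads in native replicate 1 and 0 reads in the other 3 libraries. Against a floor of 3 reads over the group, the fall in the sex-converted line came to 62.0-fold (edgeR adjusted p = 0.000128 for the fitted change). The lower end of the 95% counting interval in that line was 50.1-fold. In the native line the pooled ratio of GV to MII was 38.5, with a 95% counting interval of 16.3 to 119, and the edgeR log2 fold change was -5.18 (adjusted p = 0.000369). Leaving out native GV replicate 1 gave -4.44 and leaving out native MII replicate 2 gave -4.34. With native MII replicate 1 left out, the MII group had 0 reads, a fall of 29.0-fold against the same floor. In the sex-converted line, leaving out each library in turn gave falls against that floor from 28.8-fold to 78.5-fold. The lowest was without sex-converted MII replicate 2 and the highest without sex-converted GV replicate 1. Intervals and floors cover counting error only.

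Med28 fell less, from 241 and 443 CPM in native GV and 363 and 271 CPM in sex-converted GV to 191 and 181 CPM in native MII and 219 and 161 CPM in sex-converted MII libraries. The stages did not overlap, but the GV libraries were spread more widely in CPM than the MII libraries. The log2 fold change was -0.88 in the native line (adjusted p = 0.0166) and -0.74 in the sex-converted line (adjusted p = 0.0357, edgeR). The native call was lost without native GV replicate 2 (-0.38, adjusted p = 0.189), native MII replicate 1 (-0.93, adjusted p = 0.0565) or native MII replicate 2 (-0.87, adjusted p = 0.0707). The sex-converted call was lost without sex-converted GV replicate 1 (-0.51, adjusted p = 0.189), sex-converted MII replicate 2 (-0.53, adjusted p = 0.222) or native MII replicate 1 (-0.73, adjusted p = 0.0502).

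The middle module had 2 subunits that rose, 5 that fell and 2 that did not pass the test in each line. Its called share was 77.8% in each, against 65.2% of all genes in the native and 65.5% in the sex-converted line. The largest falls were in Med7 and Med26. Med7, a long subunit that pairs with Med21 and also holds Med31, had 132 and 83.2 CPM in native GV, 70.8 and 95.4 CPM in sex-converted GV, 6.30 and 6.02 CPM in native MII and 7.55 and 2.95 CPM in sex-converted MII libraries. Every MII library was several-fold below every GV library. Med7 fell 17.5-fold in the native line (log2 fold change -4.13, SE 0.411, adjusted p = 7.75e-06) and 16.0-fold in the sex-converted line (-4.00, SE 0.413, adjusted p = 9.95e-06, edgeR). Without sex-converted MII replicate 1 the latter was -4.82.

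Both direct partners of Med7 behaved otherwise. Med31 rose from 28.8 and 28.6 CPM in native GV and 18.7 and 29.5 CPM in sex-converted GV to 122 and 133 CPM in native MII and 115 and 128 CPM in sex-converted MII libraries. The stages were clearly apart, with a 4.44-fold rise in the native line (adjusted p = 1.93e-05) and a 5.02-fold rise in the sex-converted line (adjusted p = 1.17e-05, edgeR). Med21 had 172 and 80.5 CPM in native GV, 84.8 and 129 CPM in sex-converted GV, 162 and 169 CPM in native MII and 194 and 166 CPM in sex-converted MII libraries. Native GV replicate 1 lay within the range of the MII libraries, and the stages overlapped. Exons of Med21 share 197 bases with Tm7sf3 on the other strand, so reads of that stretch may belong to either gene. Tm7sf3 had 1609 to 2218 reads in the GV libraries and 4030 to 4501 in the MII libraries. Med21 was not called in either line (log2 fold change 0.39, adjusted p = 0.299 native and 0.75, adjusted p = 0.0578 sex-converted, edgeR), and its sign turned on library totals alone (-0.51 and -0.18). Without native GV replicate 1 the native change was 1.06 (adjusted p = 0.00567), and without native GV replicate 2 it was -0.057. In the sex-converted line Med21 passed without sex-converted GV replicate 2 (1.12, adjusted p = 0.0256), native GV replicate 1 (0.77, adjusted p = 0.00808) or native GV replicate 2 (0.76, adjusted p = 0.00734). In that line it also passed with RLE factors (0.80, adjusted p = 0.0469), in DESeq2 (0.76, adjusted p = 0.0432), without a filter on low counts (0.70, adjusted p = 0.00634) and with only the libraries compared in the fit (0.74, adjusted p = 0.0131).

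Med26, which recruits elongation factors to the polymerase, had 89.7 and 113 CPM in native GV, 119 and 96.1 CPM in sex-converted GV, 7.45 and 4.17 CPM in native MII and 11.6 and 4.18 CPM in sex-converted MII libraries. The stages lay far apart. It fell 17.3-fold in the native line (adjusted p = 1.28e-05) and 13.7-fold in the sex-converted line (adjusted p = 1.97e-05, edgeR), the latter with a log2 fold change of -3.78 that was -4.68 without sex-converted MII replicate 1.

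Med10 was the other middle subunit to rise. It had 82.5 and 75.3 CPM in native GV, 71.9 and 80.7 CPM in sex-converted GV, 374 and 345 CPM in native MII and 320.0 and 334 CPM in sex-converted MII libraries. The 4 GV libraries were within a narrow band and all MII libraries were above them, by 4.56-fold in the native line (adjusted p = 1.82e-06) and 4.28-fold in the sex-converted line (adjusted p = 2.37e-06, edgeR).

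Med4 and Med9, which form a dimer in the middle, both fell. Med9 went from 11.7 to 17.9 CPM at GV to 1.97 to 5.25 CPM at MII, a log2 fold change of -2.14 in the native and -2.22 in the sex-converted line. Its highest MII library was native MII replicate 1, and without it the native change was -3.04. Med4 went from 91.0 to 102 CPM to 41.5 to 69.7 CPM, a log2 fold change of -0.86 (adjusted p = 0.0101) and -0.78 (adjusted p = 0.0164, edgeR). The call of Med4 was lost in the native line without native MII replicate 2 (-0.56, adjusted p = 0.0939). In the sex-converted line it was lost without sex-converted GV replicate 2 (-0.74, adjusted p = 0.0519), sex-converted MII replicate 1 (-0.70, adjusted p = 0.0922) or sex-converted MII replicate 2 (-0.86, adjusted p = 0.0513).

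Med19, a subunit at the polymerase-facing hook of the middle, fell from 36.4 to 51.8 CPM at GV to 18.4 to 21.4 CPM at MII. The log2 fold change was -1.19 in the native line (adjusted p = 0.00207) and -1.02 in the sex-converted line (adjusted p = 0.00518, edgeR). The latter call was lost without sex-converted GV replicate 2 (-0.76, adjusted p = 0.061). Exons of Med19 share 246 bases with Zdhhc5 on the other strand, and since no source used here gives the strand setting of the counting, reads of that stretch may belong to either gene.

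Med1, the subunit through which nuclear receptors bind Mediator, was not called in either line. It had 77.9 and 80.3 CPM in native GV, 68.5 and 87.0 CPM in sex-converted GV, 62.9 and 82.4 CPM in native MII and 84.4 and 74.1 CPM in sex-converted MII libraries, and the stages overlapped. The log2 fold change was -0.12 in the native line (95% interval -0.605 to 0.359) and 0.027 in the sex-converted line (95% interval -0.453 to 0.508). On library totals alone Med1 was called lower in both lines (-1.03, adjusted p = 0.00173 and -0.91, adjusted p = 0.00376, edgeR).

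Med14, the X-linked backbone that ties head, middle and tail together, was also not called. It had 225 and 129 CPM in native GV, 113 and 195 CPM in sex-converted GV, 149 and 133 CPM in native MII and 143 and 142 CPM in sex-converted MII libraries. The MII libraries were close to one another, and the GV libraries lay on both sides of them. The log2 fold changes were -0.33 in the native line (95% interval -0.971 to 0.318) and -0.11 in the sex-converted line (95% interval -0.756 to 0.531). The sign turned without native GV replicate 1 (0.15) in the native line and without sex-converted GV replicate 2 (0.37) in the sex-converted line. On library totals alone, Med14 was called lower in both lines (-1.23, adjusted p = 0.00297 and -1.04, adjusted p = 0.00754, edgeR).

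The GV libraries in which Med14 and Med21 were high were the same, native GV replicate 1 and sex-converted GV replicate 2. These libraries also had the higher median level of the 13 mitochondrially encoded mRNAs, at 64.0 and 71.3 CPM, against 19.6 CPM in native GV replicate 2 and 17.0 CPM in sex-converted GV replicate 1. Within each line, Med6, Med7, Med29 and Cdk8, among others, were also higher in native GV replicate 1 and sex-converted GV replicate 2. Med22 and Med28 were lower there. The part of this split between GV libraries in the values of the subunits was not tested.

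In the tail, Med15 and Med25, both docking sites for activators, rose in both lines. Med15 had 206 and 160.5 CPM in native GV, 157 and 197 CPM in sex-converted GV, 648 and 562 CPM in native MII and 539 and 546 CPM in sex-converted MII libraries. The stages did not overlap, and the rise was 3.30-fold in the native line (adjusted p = 1.75e-05) and 3.07-fold in the sex-converted line (adjusted p = 2.69e-05, edgeR). Med25 went from 87.0 to 107 CPM at GV to 286 to 344 CPM at MII, rising 3.25-fold and 2.87-fold.

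Med16 fell. It had 5.07 and 7.11 CPM in native GV, 8.76 and 7.02 CPM in sex-converted GV, 1.34 and 0.579 CPM in native MII and 1.75 and 0.761 CPM in sex-converted MII libraries. All MII libraries were below all GV libraries. The log2 fold change was -2.62 in the native line (adjusted p = 0.00119) and -2.66 in the sex-converted line (adjusted p = 0.000884, edgeR). It was -3.38 without native MII replicate 1 and -3.36 without sex-converted MII replicate 1.

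The changes of Med23 and Med24, neighbours of Med16 in the tail, were small. Med24 went from 34.6 to 42.8 CPM at GV to 20.1 to 29.98 CPM at MII, a log2 fold change of -0.64 in the native line (adjusted p = 0.0455) and -0.69 in the sex-converted line (adjusted p = 0.0333, edgeR). Its native call was lost in DESeq2 (adjusted p = 0.0505), when only native libraries were fitted (adjusted p = 0.085) and without any single library but native GV replicate 1 or native MII replicate 1 (-0.41 to -0.67, adjusted p = 0.0521 to 0.268). Its sex-converted call was lost without any of the 4 libraries of that line (-0.57 to -0.77, adjusted p = 0.055 to 0.15). Med23 had 155 and 130.1 CPM in native GV, 125 and 151 CPM in sex-converted GV, 119 and 105 CPM in native MII and 96.3 and 94.3 CPM in sex-converted MII libraries. It was not called in the native line (-0.35, adjusted p = 0.132), except on library totals alone (-1.26, adjusted p = 0.000133), and it passed in the sex-converted line (-0.53, adjusted p = 0.0296, edgeR), though not in DESeq2 (adjusted p = 0.0527). That call was lost without sex-converted GV replicate 2 (-0.36, adjusted p = 0.226), sex-converted MII replicate 1 (-0.55, adjusted p = 0.104) or sex-converted MII replicate 2 (-0.52, adjusted p = 0.129). The change of Med23 was not shown to differ between the lines (interaction -0.19, SE 0.271).

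The kinase module contained the subunit mRNA with the largest rise. In the native line 4 of its 7 genes rose and 1 fell, beside 29.6% and 35.7% of all genes. In the sex-converted line 5 rose and 1 fell, beside 29.3% and 36.2%. The called shares of the module were 71.4% and 85.7%, against 65.2% and 65.5% of all genes. The CPM of the 7 genes summed to 187 to 247 in the GV libraries and 674 to 733 in the MII libraries. The 26 core subunits summed to 2494 to 2725 CPM at GV and 3622 to 4038 CPM at MII.

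Med13, the subunit that links the kinase module to the core, had 18.1 and 18.6 CPM in native GV, 19.7 and 20.3 CPM in sex-converted GV, 324 and 344 CPM in native MII and 355 and 321 CPM in sex-converted MII libraries. Replicates were tight at both stages. The rise was 18.2-fold in the native line (log2 fold change 4.18, SE 0.192, adjusted p = 2.30e-07) and 16.9-fold in the sex-converted line (4.08, SE 0.190, adjusted p = 2.83e-07, edgeR). Its paralogue Med13l, which takes the same place in other copies of the module, had 14.8 and 16.0 CPM in native GV, 15.3 and 14.0 CPM in sex-converted GV, 93.2 and 142 CPM in native MII and 129 and 116 CPM in sex-converted MII libraries. It was also higher in all MII libraries, by 7.66-fold (adjusted p = 2.92e-06) and 8.35-fold (adjusted p = 2.31e-06, edgeR). On library totals alone both still rose, Med13 by 3.27 and 3.14 log2 units and Med13l by 2.03 and 2.12.

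Med12 and Med12l, paralogues that activate the kinase, moved in opposite directions. The X-linked Med12 had 40.8 and 35.0 CPM in native GV, 34.2 and 42.0 CPM in sex-converted GV, 7.16 and 6.13 CPM in native MII and 7.23 and 5.71 CPM in sex-converted MII libraries. Med12l had 8.69 and 6.68 CPM in native GV, 10.4 and 8.77 CPM in sex-converted GV, 29.3 and 33.2 CPM in native MII and 32.6 and 36.8 CPM in sex-converted MII libraries. All MII libraries were below all GV libraries for Med12 and above them for Med12l. Med12 fell 5.69-fold in the native line (adjusted p = 1.53e-05) and 5.90-fold in the sex-converted line (adjusted p = 1.33e-05, edgeR). Med12l rose 4.05-fold (adjusted p = 5.90e-05) and 3.62-fold (adjusted p = 9.81e-05), and the calls of both genes held on library totals alone.

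The order of the pair on the scale per kilobase of merged exons was thereby turned. The ratio of Med12l to Med12 was 0.122 ± 0.00925 in native GV and 0.155 ± 0.0412 in sex-converted GV oocytes, and 2.87 ± 0.564 in native MII and 3.31 ± 0.826 in sex-converted MII oocytes (SD, n = 2 each). With the length of the principal transcript in place of merged exons, a choice added after the data were seen, it was 0.125 and 0.159 at GV and 2.94 and 3.39 at MII. Exons of Med12l share 1948 bases with Igsf10 on the other strand, which itself had at most 1 read in any library.

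**Figure D4:**
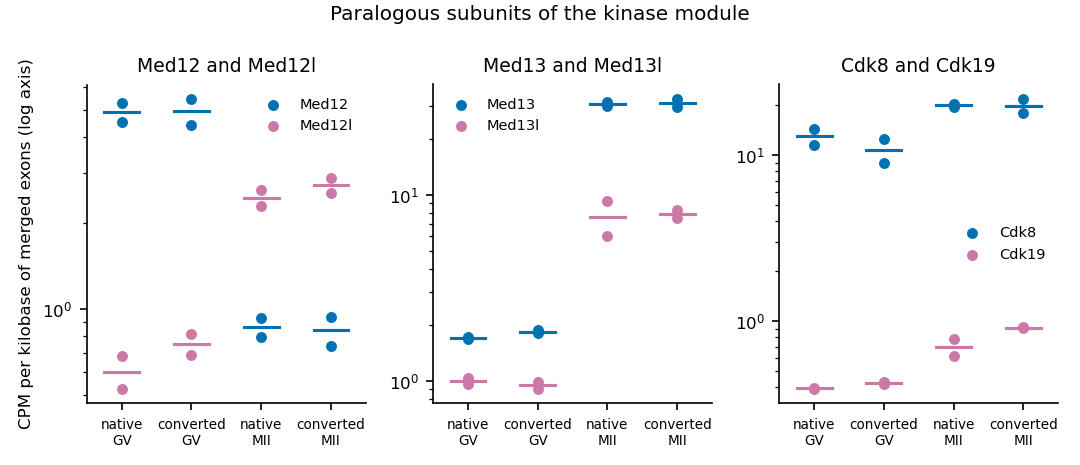
CPM per kilobase of merged exons (vertical log axis) of the paralogue pairs of the kinase module in native and sex-converted ("converted") oocytes at GV and MII; points are libraries and bars the mean of 2. Med12 lies above Med12l in every GV library and below it in every MII library, whereas Med13 and Cdk8 stay above their paralogues in all 8.

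The other pairs kept their order. The ratio of Med13l to Med13 went from 0.587 ± 0.0205 in native GV and 0.515 ± 0.0427 in sex-converted GV to 0.247 ± 0.0628 in native MII and 0.254 ± 0.000682 in sex-converted MII oocytes (SD, n = 2 each). With principal transcripts these ratios were 0.948, 0.831, 0.398 and 0.41. Cdk19 was far below Cdk8 per kilobase in all groups, with ratios of 0.0308 to 0.0466 by merged exons and 0.00938 to 0.0142 by principal transcripts.

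Cdk8, the kinase of the module, had 142 and 113 CPM in native GV, 88.3 and 123 CPM in sex-converted GV, 201 and 191 CPM in native MII and 176 and 214 CPM in sex-converted MII libraries. It was called higher at MII in both lines, with log2 fold changes of 0.62 (adjusted p = 0.0254) and 0.89 (adjusted p = 0.00397, edgeR), but the sign turned on library totals alone (-0.29 and -0.045). The native call was also lost without native GV replicate 2 (0.46, adjusted p = 0.134), native MII replicate 1 (0.58, adjusted p = 0.107) or native MII replicate 2 (0.63, adjusted p = 0.0833). Its paralogue Cdk19 was at 2.28 to 2.50 CPM at GV and 3.59 to 5.36 CPM at MII. It was not called in the native line (0.83, adjusted p = 0.0817; -0.081 on library totals alone). It passed in the sex-converted line (1.11, adjusted p = 0.0241, edgeR), but not in DESeq2 (adjusted p = 0.0523), without a filter on low counts (adjusted p = 0.0812) or on library totals alone (0.18), nor without any 1 of the 4 libraries of that line (1.10 to 1.14, adjusted p = 0.0739 to 0.0825).

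Ccnc, which encodes the cyclin partner of both kinases, had 21.0 and 19.7 CPM in native GV, 16.2 and 16.8 CPM in sex-converted GV, 15.3 and 12.5 CPM in native MII and 14.3 and 12.8 CPM in sex-converted MII libraries. All MII libraries were below all GV libraries by a small margin. The log2 fold change was -0.55 in the native line (adjusted p = 0.0817) and -0.28 in the sex-converted line (adjusted p = 0.36, edgeR), so neither passed. The native fall passed with a minimum mean of 50 reads (-0.62, adjusted p = 0.0405). On library totals alone it was called lower in both (-1.46, adjusted p = 0.000441 and -1.21, adjusted p = 0.00149).

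The levels of the core subunits were more unequal at MII than at GV. Per kilobase of merged exons, the upper quartile of the 26 core mRNAs was 2.82 to 3.94 times the lower quartile in the GV libraries. In the MII libraries it was 10.9 to 15.3 times, with no overlap between stages. The same ratio was not computed over all genes, so a widening particular to Mediator is not shown. The median subunit differed little, at 17.3 to 21.4 CPM per kilobase at GV and 15.1 to 17.6 at MII. On this scale of merged exons, the most abundant core mRNA was Med17 in all GV libraries, at 90.7 to 103 CPM per kilobase, and Med30 in all MII libraries. Among the 33 mRNAs, Med7 moved from rank 6 in native and 9 in sex-converted GV oocytes to rank 27 and 28 at MII, and Med31 from 17 and 18 to 5 in both.

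Letters like those of a CPE were searched in the last 100 bases of the principal transcript of each gene, on its own strand, as TTTTAT or TTTTAAT. They were present in 7 of the 33 subunit transcripts (21.2%), beside 19.2% of 12573 tested genes with such a transcript. Of the 14 subunits that rose in both lines 4 held them, namely Med11, Med10, Med31 and Med15. Of the 13 that fell in both lines 2 held them, Med19 and Med24, and the seventh was Cdk19. Over all genes, the letters were found in 33.2% of 3652 genes that rose in both lines and 9.87% of 4213 that fell in both. Med13, which had the largest rise, and Med30, Med13l and Med12l were among those that rose without them in this window. Such a match is a description of letters, not of a bound site.

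No subunit mRNA was found to differ between the lines. At GV, 0 of 33 were called, where 0.0134% of all genes were, and at MII 0 of 33, where 0.0134% were (edgeR). In the test of whether the change in maturation differed between the lines, the line by stage interaction, 0 of 33 subunits and 0% of genes were called. None of the 33 had an unadjusted p under 0.05 in these 3 comparisons, while 319, 549 and 329 of all genes did. DESeq2 called 0 subunits and 3, 3 and 0 genes in all. Apart from Med29, the log2 ratio of the sex-converted to the native line ran from -0.38 to 0.75 at GV and from -0.40 to 0.42 at MII, and the interaction from -0.78 to 0.36. The 95% interval lay within a 2-fold difference for 28 of these 32 subunits at GV, 26 at MII and 20 for the interaction, and for the rest a 2-fold difference was not excluded.

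The subunits with the smallest p in each comparison between the lines were Med18 (0.75, SE 0.470) and Med30 (-0.24, SE 0.161) at GV. At MII they were Med29, which rests on 5 reads in 1 native library, and Med23 (-0.23, SE 0.192). For the interaction they were Med29 again and Med18 (-0.78, SE 0.646), and all had an adjusted p of 1.0. The X-linked subunits showed no called difference. Med12 had a log2 fold change of sex-converted over native of 0.0070 at GV (95% interval -0.543 to 0.557) and -0.045 at MII (95% interval -0.668 to 0.577). Med14 had -0.20 at GV (95% interval -0.84 to 0.444) and 0.016 at MII (95% interval -0.629 to 0.662).

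Other parts of the transcription machinery changed in both directions as well. Of 13 RNA polymerase II subunits, 2 rose and 7 fell in the native line and 2 rose and 6 fell in the sex-converted line. Polr2c and Polr2f, which encode an assembly subunit and one shared with the other polymerases, rose by 2.48 and 1.87 log2 units in the native line and 2.39 and 1.99 in the sex-converted line. The second-largest subunit Polr2b fell, with log2 fold changes of -4.68 and -4.19 in the native and sex-converted lines, as did the small subunits Polr2i (-3.58 and -3.49) and Polr2k (-3.38 and -4.17). Of 21 preinitiation factors, 6 rose and 12 fell in the native line, and 5 rose and 11 fell in the sex-converted line. Gtf2a1, a subunit of TFIIA, went from 14.0 ± 1.11 to 1303 ± 46.1 CPM in native oocytes and from 16.0 ± 4.44 to 1344 ± 55.2 CPM in sex-converted oocytes (SD, n = 2 each). Its log2 fold changes were 6.54 and 6.39, above any Mediator subunit. The TBP relative Tbpl1 and the TFIIH subunit Gtf2h3 rose by 3.58 and 2.86 in the native line, and Gtf2f1 of TFIIF and Ercc3 and Gtf2h5 of TFIIH fell, at log2 fold changes of -5.17, -3.94 and -3.85.

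Of 23 pausing and elongation genes 22 were tested, of which 6 rose and 13 fell in the native line and 6 rose and 11 fell in the sex-converted line. The elongation kinase Cdk13, the cyclin Ccnt2 and the pausing factor Nelfb rose by 2.63, 2.00 and 1.70 log2 units in the native line and by 2.31, 2.06 and 1.11 in the sex-converted line. The elongation and pausing genes Nelfe, Supt4a and Supt6 fell, at -4.48, -3.34 and -2.81 in the native line and -5.12, -3.22 and -2.96 in the sex-converted line. Cohesin and its loader, which meet Mediator at enhancers, had 4 of 7 genes higher and 2 lower in both lines. Stag1, Stag2 and Rad21 of the cohesin ring rose by 3.30, 2.96 and 1.76 in the native line, and the loader genes Nipbl and Mau2 fell, at -1.35 and -1.29. The 4 lists had 69.2%, 85.7%, 86.4% and 85.7% of their tested genes called in the native line, in the order given, and 61.5%, 76.2%, 77.3% and 85.7% in the sex-converted line, beside 65.2% and 65.5% of all genes.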

How the data were processed

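The authors deposited a table of raw counts of reads per gene for the 8 libraries of polyadenylated RNA. Per the submitters' processing notes, Trimmomatic 0.38, HISAT2 2.1.0, featureCounts 2.0.0, DESeq2 1.30.1 and the build mm10 were used. The treatment of strand and of multiply aligned reads in counting, and its annotation, were not given in the sources used here, so reads shared by overlapping genes cannot be told apart. Exons also overlapped other-strand genes for Med31 (26.3% of exon bases, 4930563E22Rik) and Med20 (21.4%, the pseudogene Kpna2-ps), both with 0 reads. The same held, among others, for Med26 (12.7%, Gm17435) and Med13 (7.38%, Brip1os, with 12 to 40 reads at GV and 0 at MII). Libraries were prepared with a directional kit, 13 PCR cycles and single reads of 75 bases, per the labels' protocols. Gene names, lengths, coordinates and 3′ sequences come from GENCODE M21 (GRCm38), which matched 55144 identifiers and missed 241, holding 0.00326% of reads.

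The test was that of edgeR 4.0.16 (R 4.3.3; estimateDisp, glmQLFit, glmQLFTest) on all 8 libraries, with 1 coefficient per group, 4 residual degrees of freedom, filterByExpr at a minimum count of 10 and TMM factors of 1.33 to 1.43 at GV and 0.714 to 0.733 at MII. Standard errors are the absolute log2 change divided by the root of F. The common biological coefficient of variation was 0.243. The p-values measure the spread between these duplicates. Alternatives were RLE factors, library totals, other filters, DESeq2 1.42.0, fewer libraries and a replicate block. The steps were tested on simulated data in which few genes changed, as many up as down. Scaling between stages that differ in most genes was not tested there. All 33 subunits are named; of each of 4 other lists, up to 3 called genes per direction with the largest change at a mean of at least 10 CPM; between lines, the 2 subunits with the smallest p. Subunits and lists were chosen with earlier results of these data known.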

Additional observations from a re-analysis of the deposited data

How the results depend on the processing

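Of the calls in the native line, 22 of 27 had the same direction and side of the threshold in every alternative run, and in the sex-converted line 19 of 29; the exceptions were Cdk8, Med4, Med18, Med24 and Med28 in both lines, and Cdk19, Med11, Med19, Med22 and Med23 in the sex-converted line. Leaving out 1 library at a time gave 13 to 15 higher and 10 to 13 lower subunits in the native line, and 13 to 16 and 10 to 14 in the sex-converted line. The sign turned for Med1 in the native line without native MII replicate 1 (0.048, against -0.36 without replicate 2), and in the sex-converted line with library totals (-0.91), no filter (-0.017), a minimum mean of 50 reads (-0.074), without sex-converted GV replicate 1 (-0.13, up to 0.24 without replicate 2) and without sex-converted MII replicate 1 (-0.074). It turned with library totals for Med21 (-0.51 native, -0.18 sex-converted), Cdk8 (-0.29, -0.045) and Cdk19 (-0.081 native). It turned for Med21 without native GV replicate 2 (-0.057, against 1.06 without replicate 1), Med14 without native GV replicate 1 (0.15, against -0.68 without replicate 2) or sex-converted GV replicate 2 (0.37, against -0.45 without replicate 1), and the interaction of Med29 without native MII replicate 1 (0.071, against -5.70 without replicate 2).

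Subunits called between the lines or in the interaction stayed at 0 in every alternative run. Over all genes, the line comparison at GV gave 13 calls without a filter, 1 with only the libraries compared and 1 to 3 with 1 library left out. At MII it gave 34 without a filter, 1 with only the libraries compared, 0 with library totals or a minimum mean of 50 reads, and 0 to 3 with 1 library left out. The interaction gave 3 without a filter, and it was not run on only the libraries compared, since it needs all 4 groups. The cause was not tested.

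With the replicate number as a block, 14 subunits rose and 12 fell in the native line (9288 genes called) and 15 rose and 11 fell in the sex-converted line (9350 genes), and the line comparisons called 2 genes at GV, 0 at MII and 0 in the interaction. Med24 missed the threshold in both lines under the block (adjusted p = 0.0725 and 0.0552), and Med23 (0.0507) and Med28 (0.0503) in the sex-converted line. Deviations of same-numbered libraries correlated at -0.038 (native GV and MII), 0.068 (sex-converted), -0.44 (lines at GV) and 0.17 (lines at MII), so the numbers were not taken to pair the libraries. With crossed numbers at GV, chosen after seeing the data, 0 subunits and 2 genes were called. Precision is limited by 2 libraries per group.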
